A study of Mus musculus with 13 samples.

Results

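The immediate early and AP-1 genes considered here are 10 genes of the mouse liver transcriptome: *Jun*, *Junb*, *Jund*, *Fos*, *Fosb*, *Fosl2*, *Egr1*, *Myc*, *Ier2* and *Ier3*. They were chosen by name, and all 10 were found among the 53465 genes of the liver count table. Liver RNA was sequenced from 6 WT and 7 *Nod2*-/- male mice, with 1 library per mouse and with *Nod2*-/- animals lacking the bacterial sensor *Nod2*. All 13 mice were of the BALB/c strain, were treated with the carcinogen DMBA as pups and were kept on a high fat diet (HFD). The labels give 30 weeks on the diet and 30 weeks of age, and cancer as the disease state of both genotypes. This label does not tell how much tumor each liver held. The paper reports liver tumors in a larger share of male *Nod2*-/- than of male WT mice under DMBA and HFD. The comparison asks how the levels of these genes differed between the genotypes, both of which had received DMBA and HFD. Mice are named here by genotype and replicate number, W1 to W6 for WT and N1 to N7 for *Nod2*-/-.

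AP-1 is a family of dimeric transcription factors built from Jun proteins (*Jun*, *Junb*, *Jund*) and Fos proteins (among them *Fos*, *Fosb* and *Fosl2*), which pair through leucine zippers and bind a short palindromic DNA element. *Fos*, *Junb*, *Egr1*, *Ier2* and *Ier3* are textbook immediate early genes, transcribed within minutes of a growth factor, cytokine or stress signal through MAP kinases acting on factors that are already present, and their mRNAs are short-lived. In the liver these genes are known for their brief induction after partial hepatectomy and injury, and *Jun* and *Myc* for their roles in hepatocyte proliferation and liver cancer.

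Jun and Fos genes are controlled through short elements just before their transcription starts, and the Jun and Fos stretches below are shown because they hold such elements. Of the 10 members, 7 had an entry among RefSeq promoters of build GRCm38.p6, each running from 250 bases before to 50 bases after the start; *Egr1*, *Myc* and *Ier2* had none. The 150 bases that end just before the start of the gene, taken as the more upstream of the RefSeq and GENCODE starts, are given 5′ to 3′ on the gene's strand for the Jun genes *Jun* (chr4:95052223-95052372, minus strand) and *Junb* (chr8:84978749-84978898, minus strand), for the Fos genes *Fos* (chr12:85473740-85473889, plus strand) and *Fosb* (chr7:19310052-19310201, minus strand), and for *Ier3* (chr17:35821534-35821683, plus strand), the member with the largest log2 fold change, in whose stretch none of the motifs searched was found. Capitals mark TGACG, the core of the cyclic AMP response element, in *Junb*, *Fos* and *Fosb*, and in *Jun* the AP-1-like element TGACNTCA.
Jun: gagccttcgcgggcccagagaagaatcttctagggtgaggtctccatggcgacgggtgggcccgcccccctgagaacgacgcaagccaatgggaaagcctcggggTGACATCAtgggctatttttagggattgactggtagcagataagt
Junb: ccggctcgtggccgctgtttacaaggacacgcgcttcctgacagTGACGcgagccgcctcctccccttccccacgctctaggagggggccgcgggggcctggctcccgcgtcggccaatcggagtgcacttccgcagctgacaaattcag
Fos: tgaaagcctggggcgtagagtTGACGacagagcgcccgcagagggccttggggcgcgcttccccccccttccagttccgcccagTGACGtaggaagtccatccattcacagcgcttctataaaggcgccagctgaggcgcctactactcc
Fosb: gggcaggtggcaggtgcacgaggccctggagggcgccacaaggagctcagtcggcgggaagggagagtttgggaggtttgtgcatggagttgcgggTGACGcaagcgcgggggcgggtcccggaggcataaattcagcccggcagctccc
Ier3: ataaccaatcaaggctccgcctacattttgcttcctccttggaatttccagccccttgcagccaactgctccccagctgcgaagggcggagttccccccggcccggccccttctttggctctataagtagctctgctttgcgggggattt
On both strands, TGACG was found in 3 of the 7 member windows and in 20.8% of all 32851 RefSeq windows of the same length, and TGACNTCA, one form of which contains TGACG, in 1 member window and in 8.83% of all windows. The *Fosb* and *Fosl2* windows held GCGNGGGCG, the element of Egr proteins, which was present in 5.55% of all windows, and TATAAA was present in the *Fos* and *Junb* windows and in 13.6% of all windows. The AP-1 element TGANTCA, found in 7.81% of all windows, and the SRF CArG box, found in 1.63%, were in none of the 7 member windows. These matches are a description of letters and not of binding.

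The libraries of WT mice held 14886273 to 20579984 counts and those of *Nod2*-/- mice 13824780 to 19391431. *Nod2* itself had 0 to 4 counts in WT and 1 to 6 in *Nod2*-/- mice, so its transcript cannot check the genotype labels at this depth. Hepatocyte markers were abundant in every mouse, and each of the 10 genes in that list was tested. In bulk liver, fewer cells of a type and less RNA per cell cannot be told apart. Of 13 neutrophil marker genes, 6 passed the filter on low counts, and all 6 had a positive log2 fold change, with a median of 4.35. The edgeR test described below called 0 of these 6, where it called 0.65% of all tested genes higher. All 6 were higher at an unadjusted p under 0.05, against 12.9% of all tested genes. None of the 13 was at 0 in every mouse. Their summed normalized counts were 233 to 2242 in WT and 1154 to 71468 in *Nod2*-/- mice, with 71468 in N7 and 17349 in N4. The monocyte and macrophage markers and the Kupffer cell markers also had their highest sums in N7 (5678 and 5701, against WT ranges of 1009 to 2580 and 1627 to 2780), and stellate cell markers had theirs in W3 (4304). The 6 lung epithelium markers went the other way, with sums of 213 to 3030 in WT and 38.1 to 479 in *Nod2*-/- mice, and the 4 of them that were tested had a median log2 fold change of -2.53. Of these 4, edgeR called 0, where it called 0.509% of all tested genes lower. All 4 were lower at an unadjusted p under 0.05, against 10.2% of all tested genes. Of 5 tested cholangiocyte markers, 3 had a positive and 2 a negative log2 fold change, with a median of 0.24. Among these 5, edgeR called 1 higher and 0 lower, against 0.65% and 0.509% of all tested genes. At an unadjusted p under 0.05, 2 were higher and 0 lower, against 12.9% and 10.2%. Their sum was mostly *Spp1*, and the other 5 markers summed to 69.7 to 224 in WT and 141 to 240 in *Nod2*-/- mice. The part of these cell types in the results below was not tested.

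Genotypes were compared with edgeR's quasi-likelihood test over 13545 genes, with Benjamini-Hochberg adjustment over the whole set and 0.05 as the threshold for a call. Log2 fold changes are for *Nod2*-/- against WT and carry a standard error (SE). Of the 10 members, 9 passed the filter on low counts and *Fosb* did not. edgeR called 0 of the 9 in either direction, where it called 0.65% of all tested genes higher and 0.509% lower. At an unadjusted p under 0.05, 4 members were higher (*Ier3*, *Junb*, *Fosl2* and *Egr1*) and 0 were lower, against 12.9% and 10.2% of all tested genes. Among the 9, 8 had a positive log2 fold change and 1, *Myc*, a negative one, with a median of 0.57 beside 0.02 for all tested genes. Of all tested genes, 52.3% had a positive log2 fold change. DESeq2 called *Junb* and *Ier3* higher, among 4.38% of its tested genes called higher, and voomWithQualityWeights called *Ier3*, among 3.83%. For 0 of the 10 members did the genotypes separate without overlap in normalized counts, where 1.44% of tested genes did so.

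**Figure D1:**
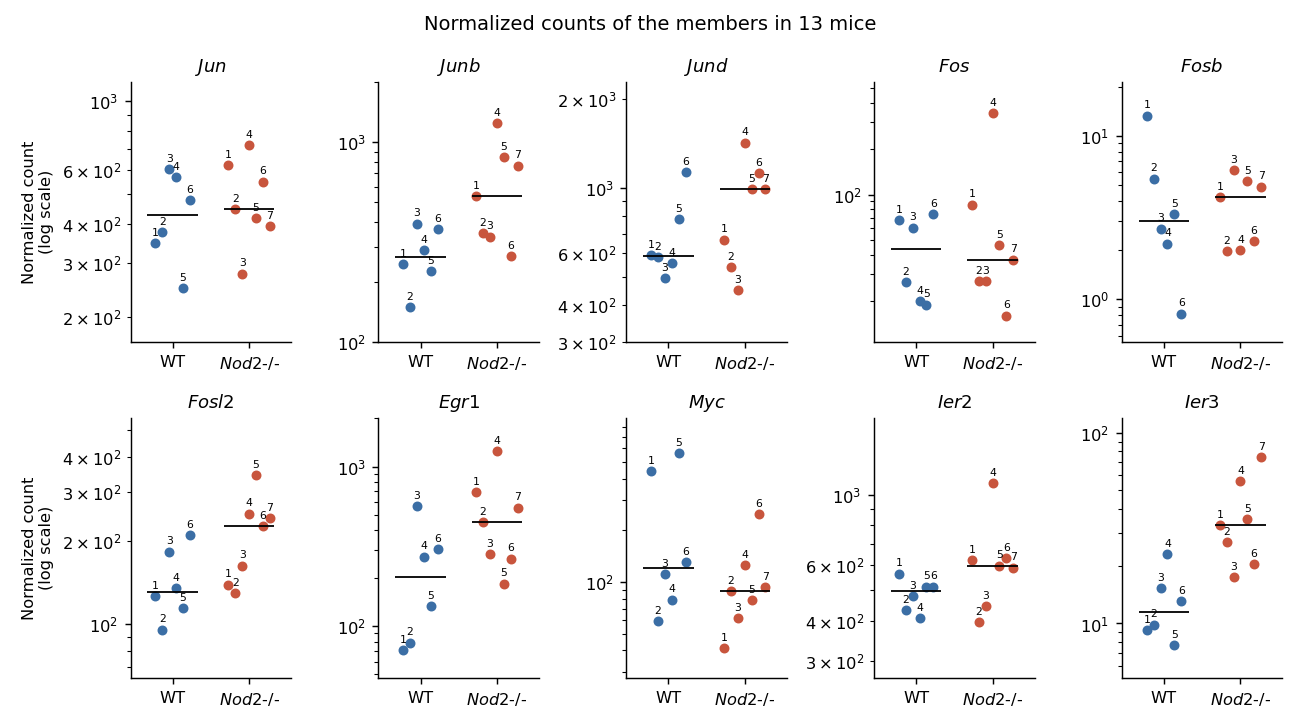
Normalized counts of the 10 members (log scale) in WT (blue, n = 6) and *Nod2*-/- mice (red, n = 7), with replicate numbers above the points and medians as lines. All 7 *Nod2*-/- mice were above the WT median for *Junb* and *Ier3*, and N4 was the highest mouse for 6 members.

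Per kilobase of exon, which allows levels to be compared between genes, *Jund* was the most abundant member, with a mean of 476 ± 183 normalized counts per kb (SD, n = 13). *Ier2* followed with 368 ± 117, *Junb* with 201 ± 136, *Jun* with 146 ± 44.0, *Egr1* with 87.5 ± 71.9 and *Myc* with 60.1 ± 59.1 normalized counts per kb. The lowest levels were those of *Fos* with 27.8 ± 36.8, *Ier3* with 23.2 ± 17.4, *Fosl2* with 18.7 ± 7.31 and *Fosb* with 0.674 ± 0.511 normalized counts per kb. Some neighbors in this order were not distinct. *Jund* was above *Ier2*, and *Egr1* above *Myc*, in 9 of 13 mice, *Junb* above *Jun* in 8, *Fos* above *Ier3* in 7 and *Ier3* above *Fosl2* in 5. By contrast, *Ier2* was above *Junb*, and *Fosl2* above *Fosb*, in 13 of 13 mice. *Jun* was above *Egr1* in 12 and *Myc* above *Fos* in 11. The order over 13 mice was not that of WT mice alone, in which mean normalized counts per kb were 137 for *Jun* and 121 for *Junb*, 84.9 for *Myc* and 53.0 for *Egr1*, and 14.8 for *Fosl2* and 11.5 for *Ier3*.

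Spread between mice also differed among the members. *Ier2* varied least, with the highest mouse 2.75-fold above the lowest, and *Jun* and *Jund* varied 2.89-fold and 3.16-fold. *Fos* varied most, by 21.5-fold, followed by *Egr1* with 17.7-fold, *Fosb* with 16.3-fold and *Myc* with 13.6-fold. The value for *Fosb* comes from 1 to 13 raw counts per mouse, where counting error is large. N4 had the highest count of the 13 mice for 6 of the 10 members (*Jun*, *Junb*, *Jund*, *Fos*, *Egr1* and *Ier2*) and the second highest for *Fosl2* and *Ier3*.

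**Figure D2:**
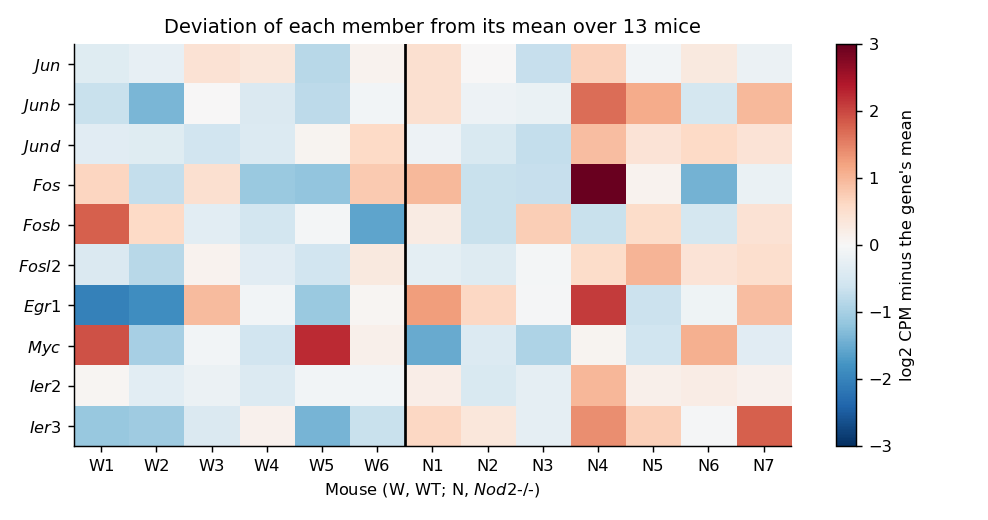
Deviation of each member's log2 CPM from its mean over 13 mice (color), with WT mice left and *Nod2*-/- mice right of the line. N4 was high in most rows, while *Myc* was highest in W5 and W1.

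*Junb* encodes a Jun protein that often dampens proliferation and acts in cytokine responses (chromosome 8, 84974484 to 84978718 of GRCm38, ENSMUSG00000052837.6). It had a lowest, median and highest normalized count of 149, 266 and 391 in WT and of 269, 539 and 1252 in *Nod2*-/- mice. The genotypes overlapped, but 4 of 7 *Nod2*-/- mice (N1, N4, N5 and N7) were above every WT mouse and 3 of 6 WT mice were below every *Nod2*-/- mouse. Means were 277 ± 90.7 (SD, n = 6) in WT and 623 ± 354 (SD, n = 7) in *Nod2*-/- mice, with a log2 fold change of 1.17 ± 0.34 (SE) and an edgeR adjusted p of 0.0807. DESeq2 gave a log2 fold change of 1.16 and an adjusted p of 0.0149. Leaving out W3 brought edgeR's adjusted p to 0.0485, in a fit that called 5.12% of its genes higher. A two-sided exact permutation test of mean log2 CPM gave p = 0.0251 with all mice and p = 0.0530 without W2. Here and below, the exact permutation p for the level of a member is not adjusted over the 10 members. Without N4 the log2 fold change was 0.90, and without N7, the mouse with the highest neutrophil marker sum, it was 1.11.

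*Prdx2*, a gene on the opposite strand, shares 173 exonic bases with *Junb*. Whether counting used strand is not given in the sources used here, so reads in these bases could have gone to either gene. *Prdx2* had a log2 fold change of 0.07 (edgeR adjusted p = 0.774).

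*Jun*, the founding AP-1 subunit (chromosome 4, 95049034 to 95052222, ENSMUSG00000052684.4), had a lowest, median and highest normalized count of 249, 427 and 601 in WT and of 276, 446 and 718 in *Nod2*-/- mice. The ranges nearly coincided, and the log2 fold change was 0.16 ± 0.23 (SE, edgeR adjusted p = 0.697). *Jund*, a subunit that is expressed in resting cells (chromosome 8, 70698949 to 70700616, ENSMUSG00000071076.6), had 495, 586 and 1128 in WT and 450, 987 and 1421 in *Nod2*-/- mice. Only N4 was above every WT mouse for *Jund*, and its log2 fold change was 0.35 ± 0.26 (SE, edgeR adjusted p = 0.430). Antisense genes on the other strand share 232 exonic bases with *Jun* (*Junos*, 11 to 29 counts per mouse) and 877 with *Jund* (*Gm11175*, 0 to 9 counts per mouse).

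Within each mouse, the make-up of the Jun family was given as the share of each gene in the summed counts per kilobase of *Jun*, *Junb* and *Jund*, a ratio that does not depend on library size. *Junb* held 18.0% ± 4.72 (SD, n = 6) of the family in WT and 27.6% ± 7.52 (SD, n = 7) in *Nod2*-/- mice, a difference of 9.66 percentage points. Its share was above every WT mouse in 5 of 7 *Nod2*-/- mice and lowest of all in N6, at 12.2%. The two-sided exact permutation test gave p = 0.0256, which was 0.154 after adjustment over 6 shares, and without N6 the difference was 12.2 points with an adjusted p of 0.0260. In the other 12 fits that left out 1 mouse the adjusted p did not pass, reaching 0.303, and over all 13 the difference was at least 8.51 points. *Jund* made up 61.2% ± 10.4 in WT and 55.4% ± 6.88 in *Nod2*-/- mice, and *Jun* 20.9% ± 6.74 and 17.0% ± 4.78. Neither differed beyond the spread between mice (exact permutation, adjusted p = 0.455 for both).

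*Fos* encodes the classical immediate early partner of Jun (chromosome 12, 85473890 to 85477273, ENSMUSG00000021250.13). Its lowest, median and highest normalized counts were 18.8, 43.4 and 74.5 in WT and 15.9, 37.2 and 343 in *Nod2*-/- mice. N4 had 343 and the next *Nod2*-/- mouse, N1, had 85.8, while 4 of 7 *Nod2*-/- mice were below the WT median. The log2 fold change was 0.89 ± 0.66 (SE, edgeR adjusted p = 0.435), and it turned to -0.17 without N4 (edgeR adjusted p = 0.868). The positive value for *Fos* therefore rested on 1 mouse. Among the 5 other members with the highest count in N4, the log2 fold change kept its sign without that mouse, at 0.05 for *Jun*, 0.90 for *Junb*, 0.20 for *Jund*, 0.76 for *Egr1* and 0.17 for *Ier2*.

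*Fosl2* encodes a Fos protein that lacks the strong activation domain of Fos (chromosome 5, 32135801 to 32157842, ENSMUSG00000029135.10). Its lowest, median and highest normalized counts were 95.4, 130 and 209 in WT and 129, 225 and 345 in *Nod2*-/- mice. Of the *Nod2*-/- mice, 4 of 7 (N4, N5, N6 and N7) were above every WT mouse, and 3 of 6 WT mice were below every *Nod2*-/- mouse. This gave a log2 fold change of 0.57 ± 0.24 (SE, edgeR adjusted p = 0.181). The exact permutation test gave p = 0.0659, and p was 0.0341, 0.0411 and 0.0346 without W6, N1 and N2, respectively, while leaving out any of the other 10 mice gave p above the threshold, up to 0.139. *Fosb* (chromosome 7, 19302696 to 19310051, ENSMUSG00000003545.3), known for its lasting induction in brain, had 1 to 13 raw counts per mouse and 54 over all mice. Its normalized counts were 4.64 ± 4.52 (SD, n = 6) in WT and 3.83 ± 1.73 (SD, n = 7) in *Nod2*-/- mice, with W1 highest at 13.3. A genotype difference of *Fosb* was not detectable at this depth (exact permutation, p = 0.943).

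The Fos family was taken here as *Fos*, *Fosb* and *Fosl2*, and *Fosl1*, which stands in the AP-1 partner list, was left out of the sum. In that sum, *Fosl2* and *Fos* divided most of the counts per kilobase between them. *Fos* held 51.6% ± 11.4 (SD, n = 6) in WT and 48.0% ± 21.9 (SD, n = 7) in *Nod2*-/- mice, from 22.3% in N6 to 84.8% in N4. The share of *Fosl2* was 46.1% ± 11.8 and 50.5% ± 21.5, and that of *Fosb* 2.37% ± 1.79 and 1.54% ± 0.968. None of the 3 shares differed beyond the spread between mice (exact permutation, adjusted p = 0.721 for *Fos* and *Fosl2* and 0.455 for *Fosb*).

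**Figure D3:**
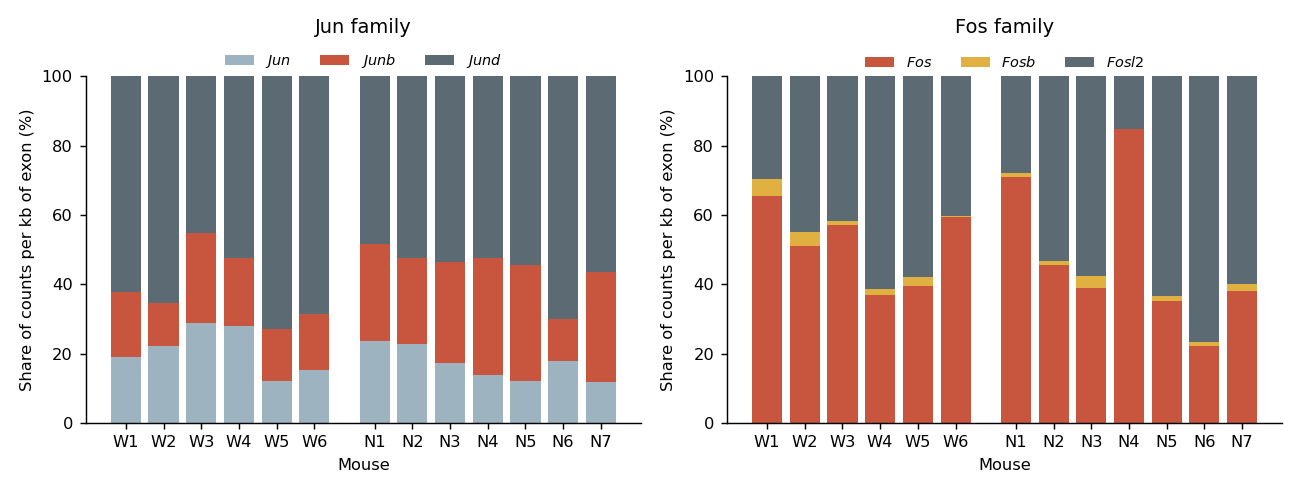
Share of each gene (%) in the summed counts per kilobase of exon of the Jun family (left) and the Fos family without *Fosl1* (right), 1 bar per mouse, with WT mice W1 to W6 and *Nod2*-/- mice N1 to N7. The *Junb* share averaged 18.0% in WT and 27.6% in *Nod2*-/- mice, and the *Fos* share reached 84.8% in N4.

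*Egr1* encodes a zinc finger factor induced by MAP kinase signaling through SRF (chromosome 18, 34859823 to 34864984, ENSMUSG00000038418.7). Its lowest, median and highest normalized counts were 70.7, 203 and 565 in WT and 185, 448 and 1252 in *Nod2*-/- mice. N1 and N4 were above every WT mouse, and W1, W2 and W5 were below every *Nod2*-/- mouse. For *Egr1* the log2 fold change was 1.14 ± 0.52 (SE, edgeR adjusted p = 0.206). W3 had the highest WT count, and without it the log2 fold change was 1.59 with an edgeR adjusted p of 0.0638. The exact permutation test of *Egr1* gave an unadjusted p of 0.0589 with all mice, 0.0215 without W3 and 0.0455 without N5. Without each of the other 11 mice p was above 0.05, up to 0.126.

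*Myc*, a bHLH factor that drives ribosome production and growth (chromosome 15, 61985391 to 61990374, ENSMUSG00000022346.15), was the one tested member with a negative log2 fold change. Its lowest, median and highest normalized counts were 59.2, 121 and 560 in WT and 41.2, 88.2 and 249 in *Nod2*-/- mice. W5 with 560 and W1 with 444 were above all other mice, and the other 4 WT mice lay between 59.2 and 131, inside the *Nod2*-/- range. The log2 fold change was -1.13 ± 0.54 (SE, edgeR adjusted p = 0.220), and it was -0.65 without W5 and -0.84 without W1.

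*Ier2* and *Ier3* are immediate early genes of other families. *Ier3*, a stress-induced gene that affects apoptosis and ERK signaling (chromosome 17, 35821684 to 35822923, ENSMUSG00000003541.6), had the largest log2 fold change of the 9 tested members. Its counts were low, with 7 to 76 raw counts per mouse. The lowest, median and highest normalized counts were 7.73, 11.5 and 23.0 in WT and 17.5, 32.8 and 74.5 in *Nod2*-/- mice. The genotypes overlapped through W4 alone, with N3 and N6 below it, and the other 5 WT mice were below every *Nod2*-/- mouse. Means were 13.1 ± 5.62 (SD, n = 6) and 37.6 ± 20.6 (SD, n = 7), a log2 fold change of 1.52 ± 0.37 (SE). The edgeR adjusted p was 0.0579, just above the threshold.

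Of the 20 alternatives in which *Ier3* was tested, 4 put its adjusted p under the threshold. DESeq2 gave an adjusted p of 0.00447, voomWithQualityWeights 0.0385, edgeR without W3 0.0364 and edgeR without N3 0.0400. In that order, these fits called 4.38%, 3.83%, 5.12% and 0.863% of their genes higher. Over the 20 alternatives in which *Ier3* was tested, its adjusted p was 0.00447 to 0.144 and its log2 fold change 1.23 to 1.74. The two-sided exact permutation test gave p = 0.00408, where 0.000583 is the smallest that it can give, and p stayed between 0.00253 and 0.00884 when each mouse was left out. N7 and N4, the mice with the highest sums of neutrophil markers, also had the highest *Ier3* counts. The log2 fold change of *Ier3* was 1.26 without N7 and 1.40 without N4, and the part of neutrophil content in it was not tested.

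*Ier2*, a nuclear protein of the fast serum response (chromosome 8, 84661331 to 84662852, ENSMUSG00000053560.4), had 408, 496 and 564 as its lowest, median and highest normalized counts in WT and 396, 597 and 1086 in *Nod2*-/- mice. Although 5 of 7 *Nod2*-/- mice were above every WT mouse, N2 was the lowest of the 13. The log2 fold change was 0.36 ± 0.19 (SE, edgeR adjusted p = 0.261), and the exact permutation p was 0.152 with all mice. The same exact test gave p = 0.0346 without N2 and p up to 0.287 without each of the other 12 mice.

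**Figure D4:**
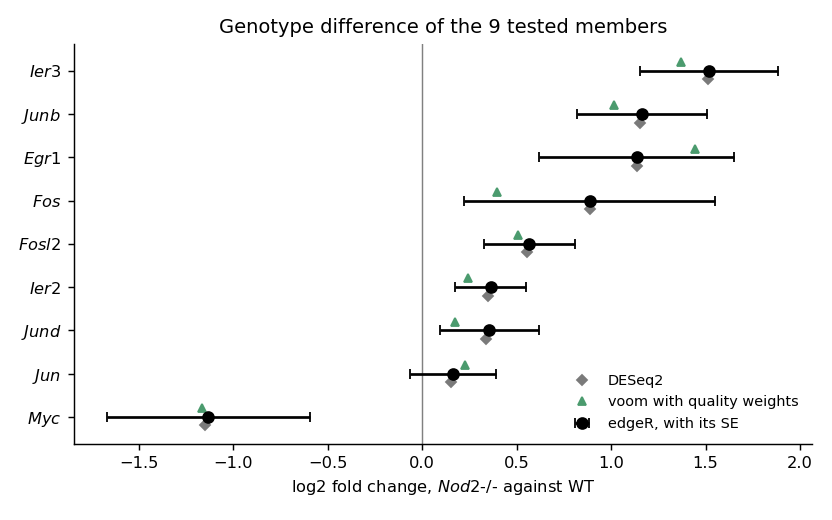
Log2 fold change of the 9 tested members, *Nod2*-/- against WT, by edgeR (black, bars are 1 SE), DESeq2 (gray) and voomWithQualityWeights (green). The 3 tools gave the same sign for each member, from -1.13 for *Myc* to 1.52 for *Ier3* by edgeR.

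Whether the members varied together from mouse to mouse was examined with *Fos* as the reference, by the correlation of log2 CPM over 13 mice. Pearson's r was highest with *Ier2* (r = 0.74, permutation p = 0.00986, 0.0510 adjusted over 9 relations) and *Junb* (r = 0.67, permutation p = 0.0113, adjusted 0.0510). Spearman's rho was 0.37 for *Ier2* (permutation p = 0.211, adjusted 0.418) and 0.68 for *Junb* (permutation p = 0.0133, adjusted 0.120). For the other 7 members r lay between -0.11 for *Myc* and 0.52 for *Jun* and *Egr1*, with adjusted permutation p from 0.157 to 0.774. None of the 9 relations passed the threshold after adjustment. Without N4 and N6, the mice farthest from the median of *Fos*, r was 0.65 with *Ier2* and 0.40 with *Junb*. Within WT mice r was 0.61 with *Ier2* and 0.55 with *Junb*, and within *Nod2*-/- mice 0.80 and 0.83.

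The genes whose pattern over the 13 mice was most like that of *Fos*, *Junb* and *Myc* were taken from the 13536 tested genes that are not members, as a description. Closest to *Fos* were *Alb* (r = 0.86), *Serpina1d* (0.85), *Coq8b* (0.84), *Bex3* (0.82) and *Entpd6* (0.81), all 5 highest in N4. Albumin, the main secreted protein of hepatocytes, took 12.0% of all counts in N4 and 5.27% to 8.74% in the other mice. Without N4, r with *Fos* was 0.72 for *Alb* and 0.59 to 0.70 for the other 4 genes. Among those closest to *Junb* were *Rgs2* (r = 0.92), *Ctsc* (0.91) and *Osmr*, the oncostatin M receptor (0.91), and their r was 0.87 without N4. Closest to *Myc* were *Adprm* (r = 0.87), *Gkap1* (0.80), *Bbof1* (0.76), *Phlda1* (0.76) and *Rgs3* (0.75).

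Other genes of the pathway were followed in 5 lists written from general knowledge. Of 45 further immediate early genes, 38 were tested, 26 with a positive log2 fold change (52.3% of all tested genes), and the median was 0.20. edgeR called 1 of them higher and 0 lower, against 0.65% and 0.509% of all tested genes. At an unadjusted p under 0.05, 8 were higher and 3 lower, against 12.9% and 10.2% of all tested genes. The called gene was *Ier5*, a serum response relative of *Ier2*, with 52.5 ± 19.4 normalized counts (SD, n = 6) in WT and 115 ± 34.5 (SD, n = 7) in *Nod2*-/- mice. Its lowest, median and highest counts were 29.6, 49.5 and 88.6 in WT and 80.3, 94.4 and 157 in *Nod2*-/- mice, and W3 was the one WT mouse inside the *Nod2*-/- range. The log2 fold change was 1.12 ± 0.25 (SE, edgeR adjusted p = 0.0422). The call was lost in 9 of the 13 fits that left out 1 mouse, namely W1, W2, W4, W5, W6, N4, N5, N6 or N7, with adjusted p up to 0.107 and a log2 fold change of 1.17 at most in those 9 fits. DESeq2 called 6 genes of this list in either direction, and voomWithQualityWeights 4, where the tools called 8.41% and 6.22% of all genes they tested.

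Upstream of the members, 24 genes of the MAP kinase and SRF pathway were all tested, 13 with a positive log2 fold change and a median of 0.05. edgeR called 0 of them, where it called 0.65% of all tested genes higher and 0.509% lower. At an unadjusted p under 0.05, 2 were higher and 2 lower (12.9% and 10.2% of all tested genes). In either direction DESeq2 called 3 and voomWithQualityWeights 2, against 8.41% and 6.22% of all genes they tested. The largest log2 fold changes were those of *Nab2*, a corepressor of Egr proteins (1.02 ± 0.37, edgeR adjusted p = 0.127), *Map2k6*, a p38 kinase activator (-0.49 ± 0.23, edgeR adjusted p = 0.220), and *Mapk3*, which encodes ERK1 (0.36 ± 0.08, edgeR adjusted p = 0.0512). For *Mapk3* the genotypes did not overlap, with 471 to 574 normalized counts in WT and 584 to 769 in *Nod2*-/- mice. Such separation was found in 1.44% of all tested genes. Without W3, the edgeR adjusted p was 0.0364 for *Nab2* and 0.0264 for *Mapk3*, in a fit that called 5.12% of its genes higher. The adjusted p of *Nab2* and *Mapk3* was 0.233 and 0.0996 without N4, and 0.219 and 0.0969 without N7. Of 14 AP-1 partner and related bZIP genes, 10 were tested, 6 with a positive log2 fold change and a median of 0.06. edgeR called 0, with 0 higher and 1 lower at an unadjusted p under 0.05 (12.9% and 10.2% of all tested genes). DESeq2 and voomWithQualityWeights each called 1, against 8.41% and 6.22% of all genes they tested. The AP-1 partners *Atf3* and *Jdp2* had log2 fold changes of 0.56 ± 0.35 (edgeR adjusted p = 0.346) and 0.42 ± 0.31 (edgeR adjusted p = 0.432), and that of *Jdp2* was 0.21 without N7.

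Downstream, 16 of 20 genes known as AP-1 targets were tested, 13 with a positive log2 fold change (52.3% of all tested genes) and a median of 0.32. edgeR called 0, with 2 higher and 0 lower at an unadjusted p under 0.05 (12.9% and 10.2% of all tested genes). DESeq2 called 0 and voomWithQualityWeights 1, against 8.41% and 6.22% of all genes they tested, and edgeR called 0.65% higher and 0.509% lower. *Spp1*, which encodes osteopontin, had 1452 ± 1119 normalized counts (SD, n = 6) in WT and 3586 ± 1608 (SD, n = 7) in *Nod2*-/- mice, with a log2 fold change of 1.30 ± 0.44 (edgeR adjusted p = 0.109). Without W3 the log2 fold change was 1.76 with an edgeR adjusted p of 0.0243, in a fit that called 5.12% of its genes higher. It was 1.10 without N4 (edgeR adjusted p = 0.207) and 1.30 without N7 (edgeR adjusted p = 0.175). *Spp1* also stands in the cholangiocyte marker list. *Plaur*, the urokinase receptor (0.98 ± 0.48, edgeR adjusted p = 0.235), and *Cd44*, a hyaluronan receptor (0.90 ± 0.39, edgeR adjusted p = 0.186), followed, and both were highest in N7. Without that mouse the log2 fold changes were 0.39 for *Plaur* and 0.45 for *Cd44*. Of 25 *Myc* partner and target genes, 24 were tested, 9 with a positive log2 fold change and a median of -0.07. edgeR called 0, with 2 higher and 3 lower at an unadjusted p under 0.05 (12.9% and 10.2% of all tested genes). DESeq2 called 3 and voomWithQualityWeights 2, against 8.41% and 6.22% of all genes they tested. The largest values were those of *Tfrc*, the transferrin receptor (1.03 ± 0.42, edgeR adjusted p = 0.166), *Mxd1*, a partner of Max that opposes Myc (0.53 ± 0.26, edgeR adjusted p = 0.231), and *Ldha*, lactate dehydrogenase A (0.50 ± 0.13, edgeR adjusted p = 0.0660). Without N7, which had the highest *Mxd1* count, the log2 fold change of *Mxd1* was 0.22. *Ldha* did not overlap between genotypes, with 9446 to 12374 normalized counts in WT and 12628 to 21775 in *Nod2*-/- mice. The share of all tested genes without overlap was 1.44%.

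**Figure D5:**
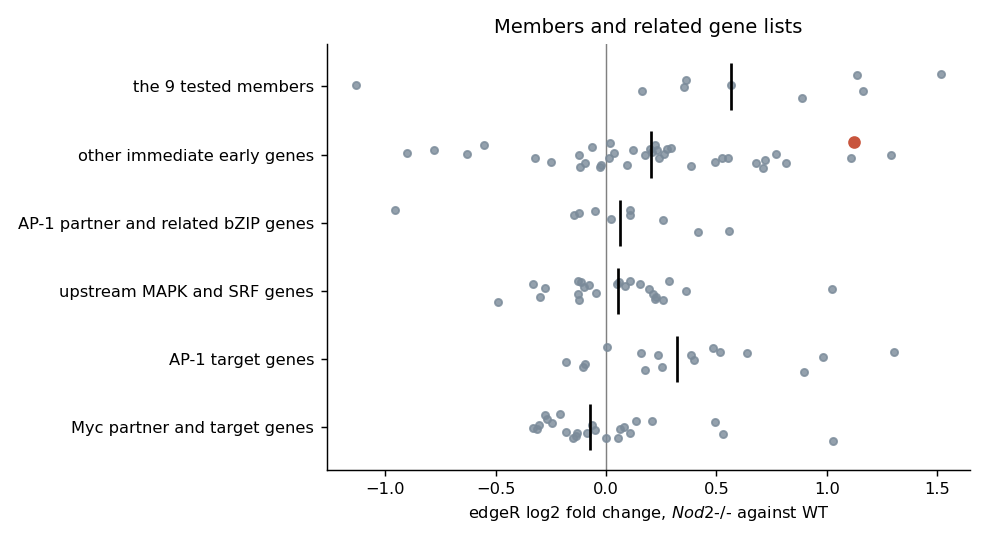
edgeR log2 fold change, *Nod2*-/- against WT, of the tested members and of the tested genes of 5 related lists (points, red where the adjusted p was under 0.05), with medians as vertical lines. *Ier5* was the one called gene, and list medians ran from -0.07 for *Myc* partners and targets to 0.57 for the members.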

How the data were processed

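Liver RNA of 6 WT and 7 *Nod2*-/- mice was sequenced from stranded polyA libraries, 1 per mouse. Per the submitters' processing notes, reads were trimmed by Trimmomatic 0.33 and aligned to GRCm38 by TopHat2 2.1.1, and the authors deposited raw counts per gene as whole numbers. The counting program, and whether it used strand, are not given in the sources used here. Gene names, positions and exon lengths came from GENCODE M21, in which 53274 of 53465 genes were found. One entry without a name was left out.

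Genes passing filterByExpr (13545) entered the tests of edgeR 4.0.16 under R 4.3.3 (TMM, glmQLFit and glmQLFTest, two-sided, no covariate), with Benjamini-Hochberg adjustment of p. The SE is the log2 fold change divided by the square root of its F statistic. Normalized counts were brought to a common effective library size, the mean of the 13 libraries, and log2 CPM used a prior count of 0.5. Exact permutation tests ran over all 1716 divisions of the 13 mice into 6 and 7, and permutation tests of correlations used 100000 resamples. The exact permutation p was adjusted for the family shares and not for the levels of the members. Alternatives were DESeq2 1.42.0 (the authors' tool), voomWithQualityWeights of limma 3.58.1, RLE normalization, other filters, a robust fit, a replicate block and leaving out mice. Those for *Ier5* and the other named genes of the lists were chosen after seeing the data. The 3 tools were tested on simulated data with 200 genes changed 4-fold, and each recovered 100% of these. False calls made up 1.96% of the calls of edgeR, 7.83% of DESeq2 and 1.48% of voomWithQualityWeights. All genes had the same spread between mice (dispersion 0.0378) and no gene of low count was changed. The simulation therefore does not cover low counts or members that varied widely. Counting error and spread between single mice limit the precision of low counts.

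The members and gene lists were chosen with earlier results of these data known, so that none is independent evidence. *Junb* and *Ier3* are among the genes that the study itself selected from these libraries. Named genes were the members, *Nod2*, in each list the genes past 5% FDR or otherwise the 3 with the largest absolute log2 fold change, and the 5 genes most correlated with *Fos*, *Junb* and *Myc*. Some genes that this rule selects are not reported here.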

Additional observations from a re-analysis of the deposited data

Results flagged for a closer look

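Among 58 groups of 6 or 7 mice examined for a mouse far from the others, 11 held one. The mouse stood apart when the gap to its nearest neighbor exceeded the critical share of the group's range in Dixon's test. By chance that test marks about 1 in 20 groups of independent, normally distributed values. Normalized counts and shares within a family need not be so, and the 11 are given as a description. In *Nod2*-/- mice, N4 stood apart in *Fos*, with 343 normalized counts, and in *Ier2*, with 1086. N6 stood apart in *Myc*, with 249 normalized counts, and in the Jun family, where *Junb* held 12.2% and *Jund* 69.9%. Among WT mice, W1 stood apart in *Fosb*, with 13.3 normalized counts, and W3 in *Ier5*, with 88.6. Of the genes in the related lists, N2 stood apart in *Atf3* with 125.9 normalized counts, and N7 in *Plaur* with 62.7, *Cd44* with 436 and *Mxd1* with 385.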

How the results depend on the processing

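The log2 fold changes of *Jun*, *Junb*, *Jund*, *Fosl2*, *Egr1*, *Myc*, *Ier2* and *Ier3* kept their direction under every alternative in which they were tested, and that of *Fos* turned in 1, with a range of -0.17 to 1.10 over the fits leaving out 1 mouse. edgeR called 157 genes in all, DESeq2 1209 (8.41% of those it tested) and voomWithQualityWeights 843 (6.22%). edgeR without W3 and N7 called 567, and edgeR leaving out 1 mouse 41 to 1156. Members called were 2 by DESeq2, 1 by voomWithQualityWeights and 0 to 2 leaving out 1 mouse. Other immediate early genes called were 6 by DESeq2, 4 by voomWithQualityWeights, 4 without W3 and N7 and 0 to 5 leaving out 1 mouse, against 1. AP-1 partner genes called were 1 by DESeq2, 1 by voomWithQualityWeights and 0 to 1 leaving out 1 mouse, against 0. Upstream genes called were 3 by DESeq2, 2 by voomWithQualityWeights, 1 without W3 and N7 and 0 to 3 leaving out 1 mouse, against 0. AP-1 target genes called were 1 by voomWithQualityWeights, 1 without W3 and N7 and 0 to 1 leaving out 1 mouse. *Myc* partners and targets called were 3, 2, 1 and 0 to 2, under these settings in the same order. The difference in mean log2 CPM was -0.13 to 0.60 for *Fos* and -0.28 to 0.40 for *Fosb* leaving out 1 mouse. That of *Fosb* was -0.0907 without W3 and N7 and -0.81 as normalized counts. The *Fos* share differed by -9.75 to 0.67 percentage points leaving out 1 mouse and by 0.69 without division by length. The cause of these changes was not tested. For replicate numbers 1 to 6, the deviations of the WT and *Nod2*-/- mouse with that number correlated at 0.03, -0.15, -0.09, -0.29, -0.04 and 0.28. In no case was the *Nod2*-/- mouse with the highest correlation the one with the same number. With the number as a replicate block 35 genes were called, none of them a member, and 0 other immediate early genes. *Ier3* dropped out where 10 counts were required in all mice, and *Fosb* did not pass edgeR's filter on low counts.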
